A study of Mus musculus with 4 samples.

Results

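The targets of the miR-125 family (mmu-miR-125a-5p and mmu-miR-125b-5p) and of the miR-99/100 family (mmu-miR-99a-5p, mmu-miR-99b-5p and mmu-miR-100-5p) were read from chimeric Ago2 eCLIP-seq of mouse plantaris muscle. All peaks that the files give to 1 of these 5 miRNAs were taken, of 659 miRNAs named in the data. A peak that holds several miRNAs was counted once for each of them, as a miRNA peak. The members were 2232 of 93468 miRNA peaks in the control library and 2440 of 100897 in the mimic library. In the control 1655 belonged to the miR-125 family and 577 to the miR-99/100 family, and in mimic muscle 1795 and 645.

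miRNAs guide Argonaute proteins to complementary RNA, mainly through the seed near the 5′ end of the miRNA, and the bound mRNAs are repressed. miR-125 is the vertebrate relative of lin-4, is known for developmental timing and blood cell biology, and targets regulators of apoptosis such as Bak1. miR-99 and miR-100 are known for targeting Mtor, Igf1r and Smarca5, and genes of both families lie in clusters with let-7 genes.

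Adult 5-month-old male C57BL/6J mice had 10 d of mechanical overload (MOV), in which the plantaris is loaded by removal of part of its synergist muscles. The left plantaris received the control lentivirus and the right plantaris the lentivirus carrying the miR-1 mimic, both with a TurboGFP reporter and a CMV promoter, and neither was aimed at the miRNAs described here. The assay joins the miRNA in Ago2 to the target fragment beneath it, so that a chimeric read names both. Each condition gave 1 library, MOV control and MOV mimic, without replicates, and the matching input libraries were not analysed here. The question for these families was where they were bound in overloaded muscle, and whether their reads differed between the libraries.

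Mature sequences from RefSeq (GRCm38.p6) are shown because the seed (bases 2 to 8, in capitals) defines each family and the similarity of members limits how well they can be told apart.
mmu-miR-125a-5p: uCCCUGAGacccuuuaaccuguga
mmu-miR-125b-5p: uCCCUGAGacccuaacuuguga
mmu-miR-99a-5p: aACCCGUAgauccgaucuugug
mmu-miR-99b-5p: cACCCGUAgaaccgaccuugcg
mmu-miR-100-5p: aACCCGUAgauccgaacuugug
miR-125a and miR-125b share the seed and their first 13 bases. miR-99a and miR-100 differ at 1 of 22 positions, and miR-99b differs from each of them at 4. All 5 miRNAs were found in the RefSeq table.

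The genes of the 2 families lie on the same chromosomes, at distances that differ widely. Mir99b (chr17:17830194-17830215 for the mature strand, plus strand) is followed by Mirlet7e and Mir125a, with 558 nt between the Mir99b and Mir125a entries. Mir99a and Mir125b-2 lie on chromosome 16 with 47278 nt between them, and Mir100 and Mir125b-1 on chromosome 9 with 50421 nt between them. The deposited name miR-125b-5p therefore covers 2 loci with the same mature sequence.

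The control library held 232408 chimeric reads in 20754 peaks and the mimic library 259207 in 21872, a ratio of 1.12 between mimic and control, and reads were not scaled to depth unless stated. Intervals are 95% intervals for counting error alone, and with 1 library per group a difference between the libraries has no replicate check. Muscle was the main tissue by its markers. All 8 muscle fibre markers had peaks, with 7.94% of control and 9.14% of mimic reads, and all 4 fibroblast markers had peaks, with 1.40% and 1.22%. Endothelial and leukocyte markers held 0.00919% to 0.0287% of the reads, and Pax7, Myf5, Adipoq and Plin1 had no peak. In such whole muscle, fewer cells of a type and less RNA per cell cannot be told apart.

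miR-125b-5p gave most of the reads of its family. It had 1951 chimeric reads in control muscle (95% Poisson interval 1865 to 2040) and 1907 in mimic muscle (1822 to 1995), and ranked 25 among all miRNAs in each library. miR-125a-5p had 272 (241 to 306) and 277 (245 to 312). miR-99a-5p led the other family, with 369 (332 to 409) and 419 (380 to 461). miR-99b-5p had 113 (93.1 to 136) and 129 (108 to 153). miR-100-5p was the least abundant, with 46.3 (33.7 to 61.4) and 64.9 (50.2 to 82.8). The order miR-125b, miR-99a, miR-125a, miR-99b, miR-100 was the same in both libraries, with intervals of neighbours apart in each.

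**Figure D1:**
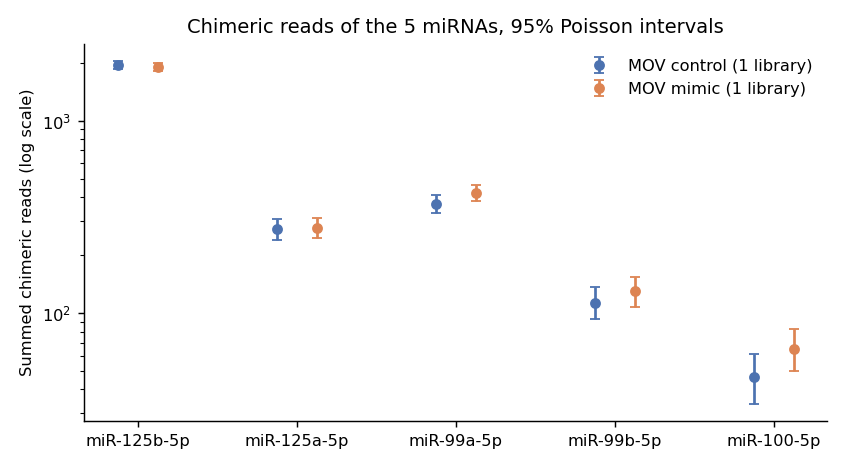
Summed chimeric reads (log scale) of the 5 miRNAs in the MOV control and MOV mimic libraries, 1 library each, with 95% Poisson intervals as bars. miR-125b-5p lay at 1951 and 1907 reads and miR-100-5p at 46.3 and 64.9, and for each miRNA the intervals of the libraries overlapped.

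As a family, miR-125 held 2223 reads in control muscle and 2183 in mimic muscle, 0.957% (95% Clopper-Pearson interval 0.917 to 0.997%) and 0.842% (0.807 to 0.878%) of all chimeric reads. Its mimic to control ratio was 0.982 (exact interval 0.925 to 1.04), which lay below the ratio of all chimeric reads. The miR-99/100 family held 528 and 613 reads, 0.227% (0.208 to 0.247%) and 0.237% (0.218 to 0.256%), a ratio of 1.16 (1.03 to 1.31) that included the ratio of all reads. The 2 families thus lay on opposite sides of the library ratio, by amounts that only for miR-125 exceeded counting error. By number of miRNA peaks this was not so, since the miR-125 ratio was 1.08 (1.01 to 1.16) and that of all miRNA peaks 1.08.

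Against 148 miRNAs with at least 50 miRNA peaks in each library, 1 of the 5 members, miR-125b-5p at 0.977 (0.917 to 1.04), had an interval below the ratio of all reads. Among the 148 this held for 20.3%, so that 1 of 5 was no more than the background. None of the 5 had an interval above it, against 11.5% of the 148. miR-125b-5p ranked 40 and miR-125a-5p 60 from the lowest ratio, and miR-99a-5p, miR-99b-5p and miR-100-5p ranked 102, 105 and 139. Of the 5 ratios that of miR-100-5p, 1.40, had the widest interval (0.954 to 2.11). The median ratio of the 148 miRNAs was 1.06, under the 1.12 of all reads. miR-133a-3p and miR-1a-3p, which held many of those reads, had ratios of 1.22 and 1.31.

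**Figure D2:**
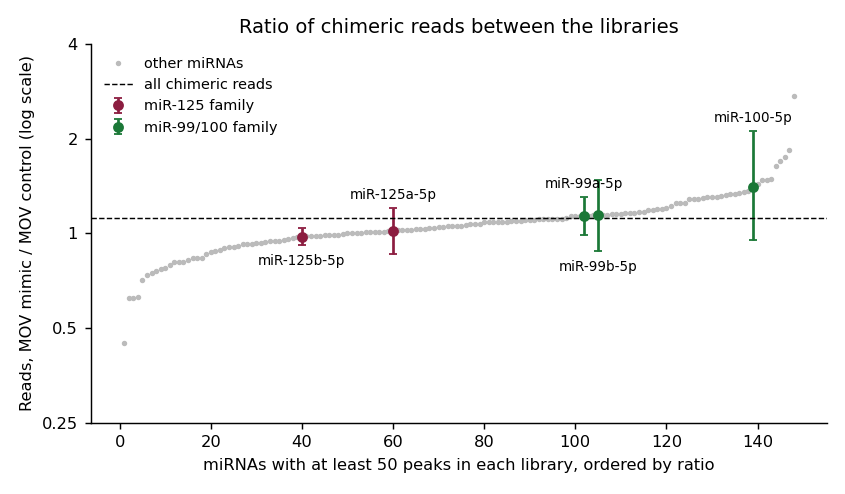
Ratio of chimeric reads in MOV mimic over MOV control (log scale) for 148 miRNAs in order of the ratio, with 95% exact intervals for the 5 members and the ratio of all chimeric reads, 1.12, as a dashed line. The members lay within the body of the ranking, with the miR-125 members at 0.977 and 1.02 below the line and the miR-99/100 members at 1.14, 1.14 and 1.40 above it.

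Most miRNA peaks of both families were weak. The median was 0.825 reads in control muscle and 0.768 in mimic muscle for miR-125, and 0.684 and 0.714 for miR-99/100. Of the miR-125 peaks, 127 in control muscle and 121 in mimic muscle had at least 3 reads, and these held 45.2% and 41.6% of the family's reads. For miR-99/100 they were 25 and 30, with 31.0% and 28.2%. The same peak held miR-125a and miR-125b in 176 cases in control muscle and 201 in mimic muscle, 56.2% and 56.9% of the miR-125a peaks. miR-99a was present in 40.5% and 52.5% of the miR-100 peaks. How reads were divided between such similar miRNAs was not stated, and most values were fractions, so the families are described as sums below.

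The strong sites mostly recurred between the libraries and the weak ones mostly did not, where a peak of any depth in the other library counted. With at least 3 reads required in both libraries, 52.8% of the control miR-125 peaks and 64% of the miR-99/100 peaks overlapped. Of the control miR-125 peaks 29.1% (26.9 to 31.4%) overlapped a peak of the same miRNA in mimic muscle, and of the miR-99/100 peaks 26.9% (23.3 to 30.7%), against 35.7% (35.4 to 36.0%) for all other miRNAs. Below 1 read the share was 20.4% for miR-125 and 17.4% for miR-99/100. From 3 to under 10 reads it was 78.5% for miR-125 and 19 of 20 peaks for miR-99/100, and at 10 reads or more 19 of 20 and 5 of 5 peaks overlapped. Counted from mimic muscle, 85.4% of the miR-125 peaks and 18 of 27 miR-99/100 peaks (66.7%, 46.0 to 83.5%) from 3 to under 10 reads overlapped. The other miRNAs ran through a similar range, from 23.4% below 1 read to 97.1% at 10 reads or more.

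At sites seen in both libraries the median change was small, while single sites varied. The SD of the log2 ratio was 2.10 for miR-125 and 1.69 for miR-99/100, against 2.01 for all other miRNAs. At sites with at least 3 reads in both libraries it was 0.533 and 0.526, against 0.711. For miR-125 the 453 shared peaks had a median log2 ratio of mimic over control of -0.03 (-0.16 to 0.02). At the 64 with at least 3 reads in both it was -0.06 (-0.23 to 0.13), against 0.12 (0.10 to 0.14) at 6230 such peaks of other miRNAs. None of the 64 was at least 2-fold higher in mimic muscle, where 10.2% of all shared sites of this depth were, and 3 were at least 2-fold lower, where 5.58% were. For miR-99/100 the median at 138 shared peaks was 0 (-0.25 to 0.13), and none of the 14 with at least 3 reads in both passed 2-fold in either direction.

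The 3 miR-125b falls past 2-fold were in the ribosomal RNA gene Rn18s-rs5, in Rhoq, and in Col3a1, a chain of type III collagen. Reads were 9.50 and 3.49 in Rn18s-rs5, 16.0 and 7.29 in Rhoq, and 13.8 and 6.74 in Col3a1. The largest rises, all below 2-fold, were in 1110002E22Rik with 4 and 7 reads, in the long noncoding RNA H19 with 21.6 and 37.5, and in Bach2, a transcription repressor, with 3.55 and 6. For miR-99/100 the largest falls were in Smarca5 with 5.84 and 3 reads, Nox4 with 8.81 and 4.79, and Rn18s-rs5 with 5.33 and 3.53. Its largest rises were in H19 with 3.34 and 5.92, Spcs1 with 3 and 3.97, and Actr3 with 4.75 and 5.92. Each of these 12 ratios had an interval that included both 1 and the ratio of all reads.

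The reads of miR-125 fell on other kinds of transcripts than those of the other miRNAs. Extracellular matrix genes, a list of 25 collagens, proteoglycans and glycoproteins, held 13.96% (12.5 to 15.5%) of its reads in control muscle and 11.3% (10.0 to 12.7%) in mimic muscle, against 4.17% and 3.499% of the reads of all other miRNAs. Without the peaks in which the family held most of the reads, described below, its shares were 6.26% and 5.14%. For miR-99/100 the share was 4.73% (3.09 to 6.91%) and 2.87% (1.75 to 4.60%). Sarcomere genes, a list of 27, showed the opposite order, with 7.17% and 8.58% of miR-125 reads and 8.66% and 11.3% of miR-99/100 reads against 19.7% and 22.7% of all others. The mitochondrial chromosome held 2.03% and 2.10% of miR-125 reads and 1.80% and 1.44% of miR-99/100 reads, against 13.8% and 13.5%. Rn18s-rs5 held 10.6% and 9.51% of miR-125 reads and 16.0% and 14.97% of miR-99/100 reads, against 6.65% and 6.36%. In each library the intervals of miR-125 lay apart from those of the other miRNAs in all 4 groups. Much of that comparison came from a few miRNAs. Of its 229656 control reads miR-133a-3p held 42768, miR-1a-3p 27411, miR-206-3p 15264 and miR-133b-3p 12045. Shares of single other miRNAs were not computed, so whether this pattern is particular to miR-125 was not tested.

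**Figure D3:**
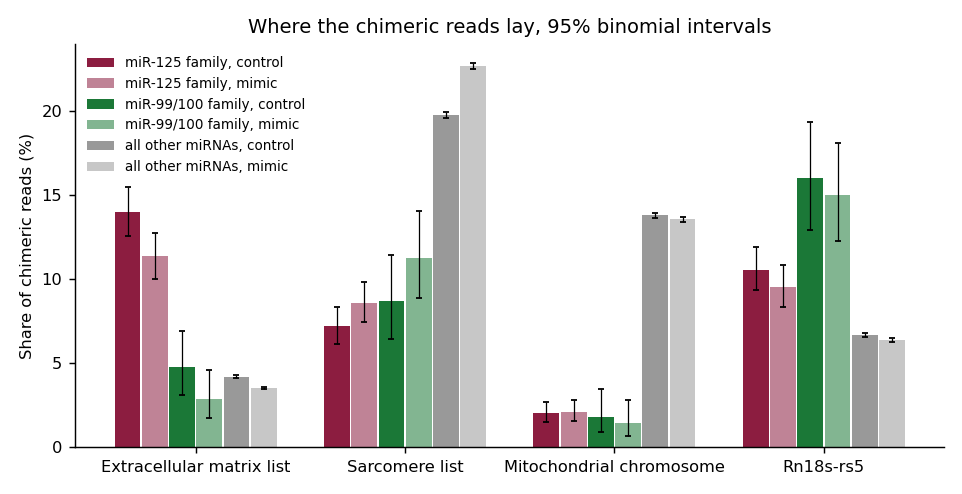
Share of the chimeric reads (%) in the extracellular matrix list, the sarcomere list, the mitochondrial chromosome and Rn18s-rs5, for the miR-125 family, the miR-99/100 family and all other miRNAs in both libraries, with 95% Clopper-Pearson intervals as bars. Matrix genes held 13.96% and 11.3% of miR-125 reads against 4.17% and 3.499% for other miRNAs, and the mitochondrial chromosome held 2.03% and 2.10% against 13.8% and 13.5%.

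Fewer miR-125 reads lay in matrix genes in mimic muscle. Its reads there were 310 in control muscle and 247 in mimic muscle, a ratio of 0.797 (0.671 to 0.945), while at all other places they were 1913 and 1936, a ratio of 1.01 (0.9496 to 1.08). Without Fn1 the ratio at matrix genes was 0.898 (0.741 to 1.09). This interval lay below the ratio of all reads, 1.12, but included the median ratio of the 148 miRNAs, 1.06. The other miRNAs had a ratio of 0.937 (0.910 to 0.964) at matrix genes and 1.12 (1.12 to 1.13) elsewhere. Reads of all miRNAs at the 4 fibroblast markers, 3 of which (Col1a1, Col3a1 and Dcn) are also in the matrix list, had a ratio of 0.972 (0.925 to 1.02), and at the 8 muscle fibre markers 1.28 (1.26 to 1.31). Among the fibre markers Myh1 held the most reads and went from 6380 to 11358, while Myh4 alone fell, from 5140 to 4015. The rest rose by varying amounts, such as Pygm from 582 to 609 and Mb from 475 to 779. Myh1 and Myh4 are also on the sarcomere list, and ratios without Myh1 were not computed. The part of cell makeup in these values was not tested. At sarcomere genes the ratio was 1.18 (0.947 to 1.46) for miR-125, 1.51 (1.02 to 2.23) for miR-99/100 and 1.28 (1.27 to 1.30) for the others.

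In the control 960 genes, 14.4% of the genes with a peak of any miRNA, had a miR-125 peak, and in mimic muscle 1024, 14.7%. With at least 3 summed reads they were 136 in each library. miR-99/100 had peaks in 323 genes (4.85%) and 344 genes (4.95%), of which 27 and 45 had at least 3 reads. Of the genes with a miR-125 peak 404 were found in both libraries, 42.1% of the control genes and 39.5% of the mimic genes. For miR-99/100 there were 119, 36.8% and 34.6%. These shares were not computed for other miRNAs, so they are not a result particular to these families. Summed reads of a gene depend on how much of the transcript is present and are not corrected for length, so they do not rank genes by strength of binding.

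Fibronectin (Fn1), a glycoprotein that cells use to attach to the matrix, carried the most miR-125 reads in control muscle. It had 77.7 (61.7 to 97.3) there and 38.7 (27.7 to 53.3) in mimic muscle, a ratio of 0.497 (0.331 to 0.743), while all miRNAs together had 1631 and 1391 reads at Fn1. Decorin (Dcn), a small proteoglycan that binds collagen fibrils, had 50.05 and 31.5 miR-125 reads, a ratio of 0.629 (0.383 to 0.990), with 136 and 102 reads of all miRNAs. These were the matrix genes among the leading 10 whose interval lay below the ratio of all reads. Col1a2 had 45.5 and 39.7 reads, Col6a3 34.3 and 34.0, and Col3a1 32.9 and 28.8. Thbs1, the matricellular protein thrombospondin 1, had 20.1 and 26.7.

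Outside the matrix, H19 had 47.9 miR-125 reads in control muscle and 75.0 in mimic muscle, a ratio of 1.57 (1.07 to 2.29) whose interval included the ratio of all reads, with 4576 and 5627 reads of all miRNAs. Txnip, an inhibitor of thioredoxin and of glucose uptake, had 27.3 and 18.1. The muscle genes among the leading 10 held a small part of the reads of all miRNAs at the same gene. The giant sarcomere protein titin (Ttn) had 34.9 and 53.7 miR-125 reads, 0.199% and 0.228% of the reads at Ttn. Neb, Myh2, Myh1 and Ckm had between 11.7 and 23.9 reads in each library, at most 1.09% of the reads at the gene. At Txnip, by contrast, the family held 31.2% and 17.0% of all chimeric reads, at Dcn 36.9% and 30.7%, and at Col6a3 11.3% and 10.7%. In the mitochondrial chromosome most miR-125 reads lay in mt-Rnr2, with 20.2 and 15.9, and in CYTB, with 10.9 and 16.7.

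Leading miR-99/100 genes carried fewer reads. H19 had 29.3 and 30.2, Cdk8, the kinase of the Mediator complex, 24.2 and 18.7, and Ttn 13.4 and 25.2. In these genes the family held at most 5.29% of all chimeric reads. Nox4, an NADPH oxidase that makes hydrogen peroxide, was different, with 9.81 and 5.79 family reads, 56.6% and 55.7% of all reads at the gene. Col1a1 had 6.54 and 9.75 reads, Strn3 6.40 and 6.27, Atp5b 6.06 and 4.51, and Col3a1 6.29 in control muscle with no family peak in mimic muscle. Myh1 had 2.02 and 10.3 reads, a ratio of 5.13 (1.07 to 46.9) whose interval included the ratio of all reads, and the reads of all miRNAs there were 6380 and 11358. Trib1 had 7.27 and 1.52 and Pja2 1.18 and 6.64, with intervals that included 1. Rn18s-rs5 had 84.4 and 91.8, and mt-Rnr2 5.55 and 1.76.

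To separate sites of a family from places where many miRNAs were found, peaks were picked in which the family held at least 50% of the chimeric reads and at least 3 reads, called family-led peaks here. They were chosen by their reads, so the reads below are a description. There were 69 miR-125-led peaks in control muscle and 59 in mimic muscle, which merged into 101 loci. Of these 27 were led in both libraries, 42 in control muscle alone and 32 in mimic muscle alone, and 58 had some miR-125 peak in both. They held 24.2% and 18.8% of the family's reads. miR-99/100 led 7 peaks in control muscle and 17 in mimic muscle, in 21 loci, of which 3 (Nox4, Actr3 and Sar1a) were led in both. Nearest the limit in control muscle were Prg4 with 50.5% inside and Igf1 with 48.1% outside for miR-125, and Nox4 with 56.6% and Trib2 with 46.5% for miR-99/100. In the mimic they were Ywhae with 50.3% and Dennd6a with 49.0%, and Zbtb7b with 54.2% and Smarca5 with 46.6%.

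The miR-125 locus with the most reads lay at the 5′ end of Fn1 (chr1:71652907-71653002, minus strand), 0.482% of the way along the gene. It had 52.4 family reads in control muscle and 36.1 in mimic muscle, 71.3% and 71.96% of all chimeric reads there. Next came Col1a2 (chr6:4537387-4537459, plus) with 35.0 and 28.7 reads, Dcn (chr10:97513607-97513740, plus) with 31.6 and 23.8, and Txnip (chr3:96559696-96559789, plus) with 27.1 and 18.1. Thbs1 (chr2:118124197-118124250, plus) had 19.8 and 21.9, with 95.3% and 93.5% of the reads at the site. The ratio at the Fn1 site, 0.689 (0.440 to 1.08), lay below the ratio of all chimeric reads, while the intervals of the other 4 sites included it. The Fn1 interval included the median ratio of the 148 miRNAs, 1.06.

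Rhoq (chr17:86997238-86997348, plus) had 19.95 reads in control muscle and 8.04 in mimic muscle, a ratio of 0.403 (0.152 to 0.948), and Col3a1 (chr1:45344986-45345029, plus) 16.4 and 6.74. Col6a3, a chain of the type VI collagen around muscle fibres, had 3 loci, with 13.9 and 9.95 reads, with 8.71 and 10.9, and with 4.60 and 3.84. Postn (chr3:54390880-54390927, plus), a matricellular protein made by fibroblasts, had 7.27 and 14.4. Lfng, which modifies Notch receptors, had 10.4 and 3.89, and Msrb3, a methionine sulfoxide reductase, 6.51 and 8.27. Ier2, an immediate early gene, had 9.45 and 13.8, and Anpep, a membrane aminopeptidase, 9.47 and 9.60. At a second Fn1 locus (chr1:71590826-71590857, minus), near the 3′ end, there were 16.5 miR-125 reads in control muscle and no miR-125 peak in mimic muscle. Peaks of other miRNAs without miR-125 were not counted at these loci.

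Of the 27 loci led by miR-125 in both libraries, 16 had fewer reads in mimic muscle and 11 had more, with a median ratio of 0.801, and 19 lay below and 8 above the ratio of all chimeric reads. Over all 101 loci, which were chosen by these reads, 12 had an interval below that ratio and 1 above it. Of the 12, only the Fn1 locus with the most reads and Rhoq were led in both libraries. The rest were led in control muscle alone and had few or no family reads in mimic muscle, and Xirp2, the locus above, was led in mimic muscle alone. These counts therefore follow the choice of loci, and they were not made for other miRNAs. Matrix genes made up 11 of the 101 loci, in 8 of 97 genes, and sarcomere genes none. Among all genes with a peak, 6656 in control and 6953 in mimic muscle, 25 were on the matrix list and 27 on the sarcomere list. So few sarcomere genes would give little or no count here, and the 50% limit is hard to reach where many other miRNAs are found. The share of led loci of other miRNAs in these lists was not counted. The loci lay at a median of 87.7% of the gene from its 5′ end, and 42 of the 100 with a gene lay in the last 10%. For all peaks the median was 76.7% in control muscle and 77.3% in mimic muscle, with 33.7% and 34.1% in the last 10%. Position here is along the whole gene, introns included.

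miR-99/100-led loci were fewer and weaker. Nox4 (chr7:87397361-87397468, plus) had 9.81 and 5.79 reads, and Smarca5 (chr8:80700900-80701107, minus), the ATPase of ISWI chromatin remodellers, 7.84 and 5.80, with 77.3% and 46.6% of the reads at the site. Actr3, a subunit of the actin-branching Arp2/3 complex, had 4.75 and 5.92, and Sar1a, a GTPase of vesicle budding from the endoplasmic reticulum, 3.98 and 3.94. The pseudokinase genes Trib1 and Trib2 had 7.27 and 1.52 reads and 3.15 and 4.87 reads. Spcs1, of the signal peptidase complex, had 3 and 6.92, Pja2, a ubiquitin ligase, 1.18 and 6.64, Strn3 4.86 and 2.93, and Minpp1, an inositol polyphosphate phosphatase, 2.71 and 4. Zbtb7b, a transcription factor, had 1.60 and 4, and the collagen gene Col14a1 2.02 and 3.36. App, Tnrc6b, Arntl, Gm9392, Dync1h1, Suclg1, Prelp and 2510009E07Rik had between 3.11 and 6.13 reads in mimic muscle and no family peak in control muscle, and Ptpa 3.32 reads in control muscle alone. No locus reached 10 reads and the Poisson intervals of the libraries overlapped at all 21, so that few differences at single loci were detectable at this depth. At the pseudogene Gm9392 alone the interval of the ratio, from 1.18, lay above the ratio of all reads. Gm9392 had no peak of any miRNA in control muscle.

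**Figure D4:**
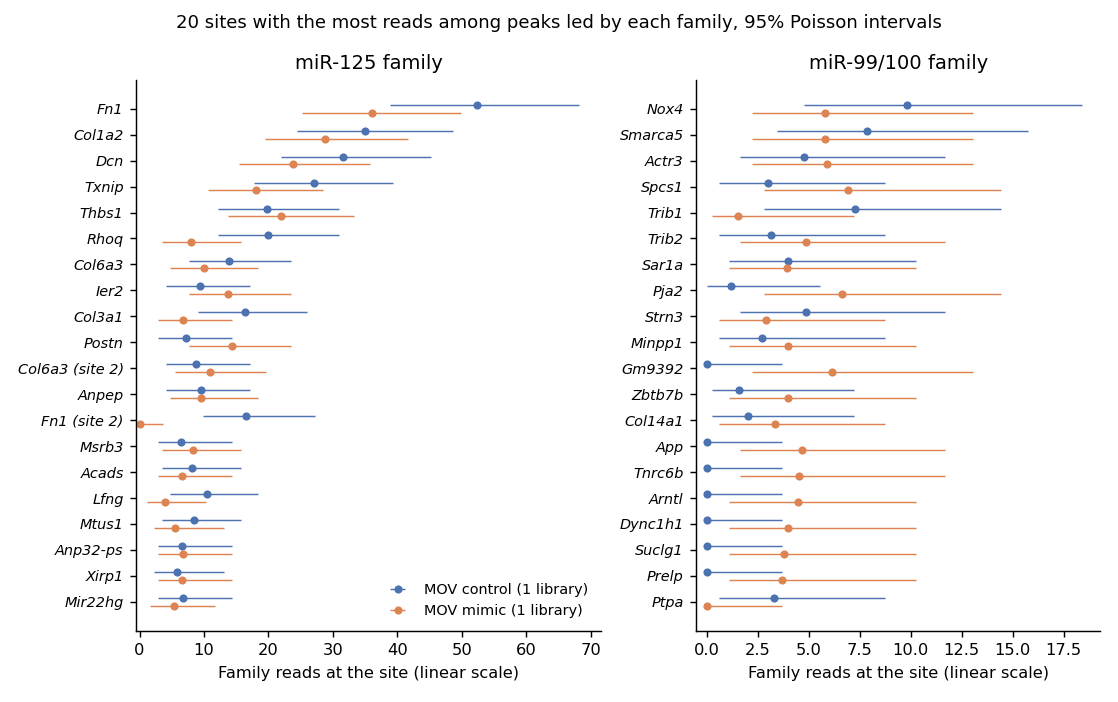
Family reads (linear scale) at the 20 loci with the most reads among peaks led by the miR-125 family (left) and by the miR-99/100 family (right), in MOV control and MOV mimic, 1 library each, with 95% Poisson intervals as bars. The Fn1 locus had 52.4 and 36.1 reads, the second Fn1 locus 16.5 and 0, and the miR-99/100 loci at most 9.81.

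Sites complementary to the seed were then counted, because they were not used to choose the genes. The miR-125 site is CTCAGGG and the miR-99/100 site is TACGGGT, searched on the sense strand of the longest GENCODE transcript (NCBIM37) of each gene, with the let-7 site CTACCTC as a comparison. The sites do not contain one another. Transcripts were found by name for 7509 of the 8068 genes with a peak of any miRNA. Of these 31.3% (30.2 to 32.3%) held a miR-125 site, 3.69% (3.27 to 4.14%) a miR-99/100 site and 26.0% (25.05 to 27.0%) a let-7 site.

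Genes with a miR-125 peak held its site in 41.5% (39.0 to 44.0%) of 1511 transcripts. Among genes with at least 3 family reads and no led peak it was 49.4% (38.7 to 60.2%) of 89, among genes with a led peak 75.3% (65.2 to 83.6%) of 93, and among those led in both libraries 87.5% (67.6 to 97.3%) of 24. The let-7 site was in 25.8% (17.3 to 35.9%) of the genes with a miR-125-led peak. Their transcripts were longer, with a median of 4633 nt against 3364 nt, and per kb they held 0.196 miR-125 sites against 0.111. Without collagen genes the share was 74.2% of 89. Genes with a miR-99/100 peak held its site in 9.77% (7.36 to 12.6%) of 522 transcripts, and those with a led peak in 8 of 20 (19.1 to 63.9%), where the miR-125 site was in 5 and the let-7 site in 4.

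**Figure D5:**
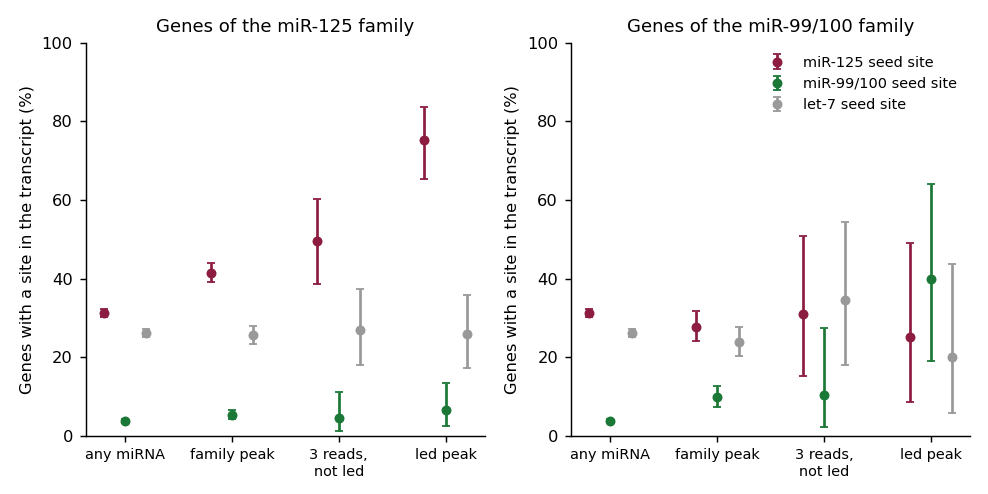
Share of genes (%) whose longest transcript held the seed site of miR-125, miR-99/100 or let-7, for genes with a peak of any miRNA, with a family peak, with at least 3 family reads but no led peak, and with a led peak, for miR-125 (left) and miR-99/100 (right), with 95% Clopper-Pearson intervals as bars. The share with a miR-125 site went from 31.3% to 75.3% and that with a miR-99/100 site from 3.69% to 8 of 20 genes, while the let-7 site was in 26.0% and 25.8% on the left.

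Where a peak lay near the 3′ end, its distance to the end of the gene could be set against the distance of the seed site to the end of the transcript. Of 47 miR-125-led loci within 3000 nt of the 3′ end of a gene with a transcript, 19 (40.4%, 26.4 to 55.7%) had a miR-125 site within 60 nt of the same distance, while no let-7 site lay there (upper limit 7.55%), although 12 of the transcripts held one. For miR-99/100 it was 3 of 11 loci (Nox4, Trib2 and Minpp1), with 1 let-7 site and no miR-125 site. In Rhoq the peak lay 2776 nt and the site 2770 nt from the end, in Anpep 195 and 191 nt, in Gas1 2599 and 2602 nt, and in Bak1 509 and 510 nt. Loci upstream of a final intron, and genes whose annotated ends differ, could not match in this comparison. In Postn the only site lay at base 22 of the transcript while the peak lay 138 nt from the 3′ end of the gene, so that this site did not lie under the peak.

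Sites of led loci are shown with 14 bases before and 1 base after the seed match, which is in capitals, since pairing outside the seed can be read from them. The first group lay at the distance of the peak.
Rhoq, bases 1378 to 1384 of 4151, 3′ UTR: agaaggtacaatctCTCAGGGg
Ier2, bases 995 to 1001 of 1522, 3′ UTR: cctagatcttgaatCTCAGGGt
Anpep, bases 3603 to 3609 of 3797, 3′ UTR: cctctggggctgatCTCAGGGa
Acads, bases 1481 to 1487 of 1870, 3′ UTR: ggggggaagtctatCTCAGGGa
Bak1, bases 1874 to 1880 of 2387, 3′ UTR: ttggcggctggactCTCAGGGa
Nox4, bases 2436 to 2442 of 3753, 3′ UTR: aaactttgtatcgaTACGGGTa
Trib2, bases 3508 to 3514 of 4198, 3′ UTR: gccagtacttcaatTACGGGTc
Minpp1, bases 1823 to 1829 of 2619, 3′ UTR: ttaggatctagacaTACGGGTa
In the second group the transcript held a single site, and its place relative to the peak was not settled. In Txnip, Thbs1 and Smarca5 the distances of peak and site to the 3′ end differed by 302, 460 and 1449 nt, and Fn1 and Dcn lay outside that comparison.
Fn1, bases 193 to 199 of 8312, coding: atccactcaagatgCTCAGGGg
Dcn, bases 1034 to 1040 of 1758, coding: acaacaacaaactcCTCAGGGt
Txnip, bases 1011 to 1017 of 2827, coding: ggcaatcacattatCTCAGGGa
Thbs1, bases 3395 to 3401 of 5848, coding: caaccccacaagggCTCAGGGa
Smarca5, bases 3601 to 3607 of 6113, 3′ UTR: gtagttctttaattTACGGGTc
Among 53 genes with a miR-125-led peak and a single site, it lay in the coding sequence in 17, the 3′ UTR in 27 and the 5′ UTR in 9, and was followed by an A, the base favoured opposite the first base of a miRNA, in 30. For miR-99/100 these were 7 genes, with 2 in the coding sequence, 5 in the 3′ UTR and 3 followed by an A.

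Targets known from the literature held family peaks more often than all genes did, for each family in each library. The lists were chosen with earlier results of these data known, so these shares are a description and not an independent check. Of 27 literature targets of miR-99/100, 15 had a peak of any miRNA in control muscle and 16 in mimic muscle, and 6 and 10 had a family peak, against 4.85% and 4.95% of all genes. The list held 4.95% (3.24 to 7.13%) and 4.70% (3.19 to 6.72%) of the family's reads, against 0.0982% and 0.0899% of the reads of all other miRNAs and 0.155% and 0.152% of miR-125 reads. Nox4, Smarca5 and Trib2 were the listed genes with at least 3 family reads in a library. Mtor had no peak of any miRNA in control muscle, and 2.73 family reads among 6.37 reads of all miRNAs in mimic muscle. Igf1r had 1.69 and 2 family reads.

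Of 40 literature targets of miR-125, 28 had a peak of any miRNA in control muscle and 22 in mimic muscle. Of these 10 (35.7%, 18.6 to 55.9%) and 14 (63.6%, 40.7 to 82.8%) had a family peak, against 14.4% and 14.7% of all genes with a peak. They held 0.979% (0.621 to 1.49%) and 1.26% (0.854 to 1.85%) of the family's reads against 0.571% and 0.504% of the reads of other miRNAs. Mcl1, which blocks apoptosis, had 7.82 and 10.1 reads. Bak1, which promotes it, had 3.27 and 0.554, of which the led peak (chr17:27020299-27020344, minus) held all 3.27 in control muscle. Lifr, a cytokine receptor, had no family peak in control muscle and 4.13 reads in mimic muscle.

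Genes of mTOR and insulin-like growth factor signalling, a list of 29, had family peaks about as often as other genes. Of the listed genes with a peak of any miRNA, 24 in control and 26 in mimic muscle, 3 and 4 (12.5% and 15.4%) had a miR-125 peak, against 14.4% and 14.7% of all genes. A miR-99/100 peak was in 1 and 3 (4.17% and 11.5%), against 4.85% and 4.95%. miR-125 had 8.39 and 5.97 reads there, and miR-99/100 1.69 and 4.84. This was 0.378% and 0.274% of miR-125 reads and 0.319% and 0.789% of miR-99/100 reads, against 0.512% and 0.432% for other miRNAs, with overlapping intervals for both families. Igf1, the growth factor, was the only one with at least 3 reads of a family in a library, with 4.88 and 2.97 of miR-125b.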

How the data were processed

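The deposited values were estimated counts, the chimeric reads of 1 miRNA in 1 peak, which the authors did not scale to depth. Per the labels, UMI-tools 1.1.1, cutadapt 3.2, STAR 2.7.7a, Bowtie 1.2.3 and HOMER 4.11 were used with mm10. The methods name mm9, peaks from CLIPper and an amplification with a miR-1 primer, and whether that amplification made these files was not given in the sources used here, so shares describe the files and not miRNA abundance. Coordinates are GRCm38 (mm10), counted from 1.

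Peaks were given to the RefSeq gene (GRCm38.p6) with the largest overlap on their strand. Strands came from RefSeq tables for 28096 genes and by name from the NCBIM37 annotation for 9312, and a gene of unknown strand was used where no other fitted. Seed sites were searched in GENCODE transcripts of NCBIM37, matched by name. Alternatives were the read minimum, the overlap rule, the depth scaling, loci left out and peaks in place of reads. Ratios without the matrix list, the matrix ratio without Fn1, site shares without collagen genes and the matrix share without led peaks were chosen after seeing the data. Peaks of the same miRNA and strand that shared at least 1 nt were counted as overlapping, and shared peaks were each other's largest overlap.

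Python 3.11.15 with pandas 2.3.3 and scipy 1.17.1 was used. With 1 library per group no test between conditions was run. Reads were rounded for exact Poisson, Clopper-Pearson and conditional binomial intervals, and medians have order-statistic intervals. Overlap, gene assignment and intervals were tested on simulated data.

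Genes were named by rule: the 10 genes and 10 led peaks with the most family reads per library outside the mitochondrial chromosome and Rn18s-rs5, the 3 largest rises and falls at shared peaks with at least 3 reads in both, listed literature and mTOR genes with at least 3 family reads, and the mitochondrial and ribosomal RNA genes with the most reads. Others were named after their values were seen. The members, lists and rules were chosen with earlier results of these data known.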

Additional observations from a re-analysis of the deposited data

Results flagged for a closer look

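The opposite strands of the same hairpins, which were outside the members, also gave chimeric reads, above a limit of 3 reads for a count of 0 (one-sided), although those under 3.69, the upper end of the two-sided interval of a count of 0, lie within it. miR-125b-2-3p had 19.997 reads (95% Poisson interval 12.2 to 30.9) in control muscle and 14.5 (7.65 to 23.5) in mimic muscle. miR-99b-3p had 9.44 (4.12 to 17.1) in 12 peaks of mimic muscle, against 0.407 in 1 peak of control muscle. miR-99a-3p had 4.97 in control muscle and 3.63 in mimic muscle, miR-125b-1-3p 4.02 in mimic muscle and miR-125a-3p 3.06 in control muscle. The difference of miR-99b-3p between the libraries was not tested, since each group had 1 library.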

How the results depend on the processing

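No paired analysis was possible because there were no replicates, and none could be left out. Of 97 values under other settings 49 moved by more than their interval (counts, by over 1.5 times), 48 did not, and no value whose interval excluded its null turned direction. A minimum of 1 read per peak gave miR-125 shares of all reads of 0.853% in control and 0.724% in mimic muscle and miR-99/100 shares of 0.171% and 0.189%, and a minimum of 3 reads gave 0.625%, 0.496%, 0.102% and 0.0945%. Without the mitochondrial chromosome they were 1.09%, 0.952%, 0.258% and 0.269%. Without Rn18s-rs5 the miR-125 share in control muscle was 0.917% and the miR-99/100 shares were 0.205% and 0.215%. As a share of peaks they were 1.77%, 1.78%, 0.617% and 0.639%.

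The miR-125 ratio was 0.904 from peaks of at least 3 reads, 0.880 after division by library totals and 1.08 as a ratio of peak numbers, and its median log2 ratio at shared peaks was -0.18 after that division. With the read minimum applied to both libraries, the overlap of control peaks from 1 read was 32.6% for miR-125 and 40.5% for miR-99/100. From 3 reads it was 52.8% and 64%, and with a reciprocal overlap of 50% and no minimum 24.0% and 20.1%. Counted from mimic muscle the miR-125 overlap was 26.6%, and with any family member the miR-99/100 overlap was 30.9%. miR-125 target genes numbered 457 and 466 from 1 read, 96 and 89 from 3 reads, and 246 and 238 with at least 2 peaks. miR-99/100 target genes numbered 118 and 149, 14 and 23, and 74 and 74. With at least 10 reads miR-125 led 10 and 8 peaks and miR-99/100 led 0 and 0. Without Fn1 the miR-125 ratio at matrix genes was 0.898. Without its led peaks the matrix share of miR-125 reads was 6.26% and 5.14%. The ratio and median log2 ratio of miR-99/100 moved under no setting beyond their intervals. The median miRNA peak held under 1 read, which limits what can be said of single sites.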

Other observations

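Cluster neighbours of the members include let-7 genes, whose mature forms had many reads. In the cluster on chromosome 17 the mimic to control ratio was 1.14 (0.880 to 1.48) for miR-99b-5p, 0.896 (0.829 to 0.968) for let-7e-5p and 1.02 (0.858 to 1.21) for miR-125a-5p, with overlapping intervals, against 1.12 for all chimeric reads. let-7c-5p, whose gene Mirlet7c-1 lies beside Mir99a, had 1.01 (0.977 to 1.04), where miR-99a-5p had 1.14 (0.985 to 1.31). let-7c-5p has a second locus on another chromosome.

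The families were partly found in the same peaks. A miR-125 and a miR-99/100 member were in the same peak 145 times in control muscle and 153 times in mimic muscle, 9.80% and 9.60% of the miR-125 peaks and 29.1% and 28.9% of the miR-99/100 peaks. How often other pairs of families shared a peak was not counted. A median of 8 miRNAs was named in the peaks of miR-99/100 in each library, and of 5 in those of miR-125. For all other miRNAs the median was 5 in control muscle and 6 in mimic muscle.

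Some led loci with low reads had a seed site at the distance of the peak. Cdh5, the cadherin of endothelial junctions, had 3 miR-125 reads in mimic muscle and none in control muscle, with its seed site 546 nt and the peak 549 nt from the 3′ end. Clec3b had 3.29 reads in control muscle and 2.91 in mimic muscle, with the site at 97 nt and the peak at 105 nt. Both were named after their values were seen.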
